A study of Mus musculus with 11 samples.

Results

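The genes described are 10 genes of the neural plate border and the neural crest, Pax3, Pax7, Msx1, Msx2, Tfap2a, Dlx5, Foxd3, Snai2, Sox9 and Sox10, out of 22367 protein-coding genes of the annotation used. A peak was assigned to a gene when its midpoint lay in the gene body or within 50 kb on either side, in coordinates of the mouse genome build mm9. The 10 windows had no peak in common, spanned 1.25 Mb or 0.0487% of the genome, and held 642 of the 1003029 peaks of the 10 lists on chromosomes 1 to 19, X and Y. The lists were made by ChIP-seq in EpiSCs (epiblast stem cells of the mouse) for the transcription factors (TFs) POU5F1 and POU3F1, SOX2, and OTX2 and ZIC2. EpiSCs resemble the epiblast after implantation. In every library the TF pulled down was an exogenous one, expressed by transient transfection of a pCAGGS vector together with the biotin ligase BirA, tagged with the biotin acceptor sequence BLRP and collected on streptavidin beads, so the endogenous TF was not what was measured. All EpiSCs were of strain 129/Sv and were grown without feeder cells with Fgf2 at 10 ng/ml. The EpiSC group had activin at 20 ng/ml, and the second group, called activin-free here, was EpiSCs kept without activin for 18 h before they were fixed. Each TF was profiled in 1 library per culture, so that no value has a replicate error, no difference could be tested, and any difference between the cultures compares those libraries, not the conditions.

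The neural plate border is the band between the neural plate and the surface ectoderm, and neural crest cells arise from it and migrate away to form peripheral neurons and glia, pigment cells and much of the face. Paired box, Msx, Tfap2 and Dlx TFs mark the border first, and Foxd3, Snai2 and the SoxE TFs Sox9 and Sox10 follow in the crest itself. EpiSCs correspond to an earlier stage, in which POU5F1 and SOX2 are maintained. ZIC and OTX TFs act in the epiblast and later in the anterior neural plate, and ZIC TFs also act at the border. ChIP-seq peaks record where a TF was bound and not whether the gene beside them was transcribed, and the labelled cell type could not be checked from marker genes, since the lists hold no expression values.

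A peak is given by its start, end and score, the score being the peak caller's p-value on a logarithmic scale, with a lowest value of 50 in the lists. The lists on these chromosomes ran from 62387 peaks (POU5F1, EpiSC) to 126751 peaks (POU5F1, activin-free), and the read depth behind them is unknown. Because the score depends on the library, its place in its own list is given as a percentile, the percentage of the peaks of that list with a lower score, with ties shared equally. In the activin-free ZIC2 list, peaks at Pax3, Sox9 and Sox10 tied at a score of 3100.0, the 98.7th percentile. They cannot be ranked by score, and the Pax3 ZIC2 peak whose sequence is printed below is among them. A share of peaks is followed by its 95% interval (Wilson), and these intervals cover counting error only. Where a pair of values is joined by "and" with no culture named, the first is from EpiSCs and the second from the activin-free culture.

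The sequences below are the centres of the sites on which the description turns. They are the sites with peaks of all 5 TFs, the highest SOX2 peak and the site of most lists in the Pax3 introns, and the highest-scoring peaks of the other TFs at these genes. They were read from the plus strand of mm9 (NCBIM37), 5′ to 3′, and none of them holds a noncoding exon base. Capitals mark the letters CAGCAGG (ZIC), GGATTA (OTX), ACAAAG or ACAATG (SOX) and ATGCAAAT or ATGCATAT (octamer) on either strand and, in the POU5F1 peaks of Sox10 and Pax7, a run of at least 20 bases in which purines and pyrimidines alternate.
Tfap2a intron, OTX2 peak, chr13:40819828-40819977: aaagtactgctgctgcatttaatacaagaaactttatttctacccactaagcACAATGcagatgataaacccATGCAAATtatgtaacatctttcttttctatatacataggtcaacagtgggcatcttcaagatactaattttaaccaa
Tfap2a intron, site of all 10 lists, chr13:40820365-40820564: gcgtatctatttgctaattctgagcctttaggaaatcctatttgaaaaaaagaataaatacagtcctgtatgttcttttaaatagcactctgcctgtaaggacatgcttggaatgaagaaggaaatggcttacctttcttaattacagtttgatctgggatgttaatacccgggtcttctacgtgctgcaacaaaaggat
Foxd3, upstream site, chr4:99308651-99308850: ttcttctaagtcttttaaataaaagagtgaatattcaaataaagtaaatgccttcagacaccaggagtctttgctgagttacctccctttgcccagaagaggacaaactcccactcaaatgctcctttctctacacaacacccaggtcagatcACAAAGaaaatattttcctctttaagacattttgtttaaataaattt
Foxd3, downstream site, chr4:99325572-99325771: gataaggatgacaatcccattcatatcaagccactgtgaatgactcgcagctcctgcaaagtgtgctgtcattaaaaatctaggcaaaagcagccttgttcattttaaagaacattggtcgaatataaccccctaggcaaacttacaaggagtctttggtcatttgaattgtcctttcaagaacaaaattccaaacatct
Sox9, downstream site, chr11:112672610-112672809: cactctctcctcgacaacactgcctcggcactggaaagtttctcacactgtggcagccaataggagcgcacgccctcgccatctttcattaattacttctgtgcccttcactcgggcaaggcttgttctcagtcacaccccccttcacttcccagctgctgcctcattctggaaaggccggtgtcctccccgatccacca
Pax3 intron, SOX2 peak, chr1:78164578-78164727: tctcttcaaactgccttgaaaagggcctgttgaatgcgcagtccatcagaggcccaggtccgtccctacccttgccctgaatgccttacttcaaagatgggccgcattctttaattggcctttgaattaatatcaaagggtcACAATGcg
Pax3 intron, POU site, chr1:78110919-78111118: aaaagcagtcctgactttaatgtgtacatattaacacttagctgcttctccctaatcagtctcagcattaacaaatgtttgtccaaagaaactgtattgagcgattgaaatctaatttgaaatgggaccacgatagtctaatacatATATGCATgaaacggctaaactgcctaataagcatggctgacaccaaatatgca
Pax3 upstream, ZIC2 peak, chr1:78198226-78198375: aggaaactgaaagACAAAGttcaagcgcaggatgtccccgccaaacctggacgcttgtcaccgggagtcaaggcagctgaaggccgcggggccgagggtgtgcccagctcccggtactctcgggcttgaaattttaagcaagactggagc
Sox10 downstream, ZIC2 peak, chr15:78962356-78962505: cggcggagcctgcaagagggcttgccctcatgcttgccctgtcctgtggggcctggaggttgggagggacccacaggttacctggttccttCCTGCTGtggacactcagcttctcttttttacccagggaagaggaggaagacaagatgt
Sox10 upstream, POU5F1 peak, chr15:79030167-79030316: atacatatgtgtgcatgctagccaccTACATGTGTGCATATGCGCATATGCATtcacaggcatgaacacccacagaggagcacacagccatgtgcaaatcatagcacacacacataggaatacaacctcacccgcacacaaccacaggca
Pax7 intron, POU5F1 peak, chr4:139348795-139348944: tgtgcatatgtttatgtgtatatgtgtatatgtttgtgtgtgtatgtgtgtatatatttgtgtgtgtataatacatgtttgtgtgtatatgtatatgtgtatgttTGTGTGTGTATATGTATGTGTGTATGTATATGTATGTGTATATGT
Foxd3 far upstream, POU3F1 peak, chr4:99291634-99291783: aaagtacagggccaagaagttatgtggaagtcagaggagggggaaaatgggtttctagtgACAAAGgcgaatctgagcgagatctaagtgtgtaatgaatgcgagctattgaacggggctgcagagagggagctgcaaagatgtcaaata
The OTX2 peak in the Tfap2a intron had an octamer and a SOX sequence near its centre but no OTX sequence. The ZIC2 peak downstream of Sox10 had a ZIC sequence, and the window of the Pax3 ZIC2 peak had none. The windows of the Foxd3 POU3F1 peak and the Pax7 POU5F1 peak had no octamer. The octamer of the Sox10 POU5F1 peak lay at the end of an alternating run of 27 bases, and the window of the Pax7 POU5F1 peak ended in an alternating run of 45 bases. The windows shown for the Tfap2a site of all 10 lists, for the downstream Foxd3 site and for Sox9 held none of the searched sequences, which says only that these letters were not in these 200 bases.

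ZIC2 had by far the most peaks at the 10 genes, with 167 in EpiSCs and 162 in the activin-free culture. OTX2 had 79 and 53 peaks, POU5F1 38 and 54, SOX2 26 and 30, and POU3F1 16 and 17. Per base, ZIC2 peaks were 2.82 times (interval 2.42 to 3.28) as frequent in the windows as over the whole genome in EpiSCs and 3.05 times (2.62 to 3.56) in the activin-free culture. The same ratio over the windows of all protein-coding genes was 1.86 and 1.88. The ZIC2 ratios pool the 10 windows, and Pax7 and Sox10 alone held 83 of the 167 EpiSC peaks, so they do not describe each gene. POU3F1 had the lowest ratios, 0.292 (0.179 to 0.474) and 0.342 (0.214 to 0.548), against 0.598 and 0.601 over all protein-coding genes. Among the top 50000 peaks by score its ratio was 0.164 (0.0639 to 0.422) in both cultures, from 4 peaks each. The ratio over all protein-coding genes was not counted for those peaks. OTX2 was at 1.57 (1.26 to 1.96) in EpiSCs, against 1.6 over all protein-coding genes, and at 0.956 (0.731 to 1.25) in the activin-free culture, against 1.35. SOX2 was at 0.838 (0.572 to 1.23) and 0.702 (0.492 to 1), against 0.86 and 0.856. POU5F1 was at 1.25 (0.911 to 1.72) in EpiSCs, against 0.836, and at 0.875 (0.671 to 1.14) in the activin-free culture, against 0.804. ZIC2, OTX2 and POU5F1 had a peak at all 10 genes in both cultures, where 93.1%, 93.3% and 77.3% of all protein-coding genes had one in EpiSCs and 92.3%, 95.6% and 89.5% in the activin-free culture. SOX2 and POU3F1 had one at 7 genes each in EpiSCs, against 75% and 47.8%, and at 8 each in the activin-free culture, against 85.6% and 53%.

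**Figure D1:**
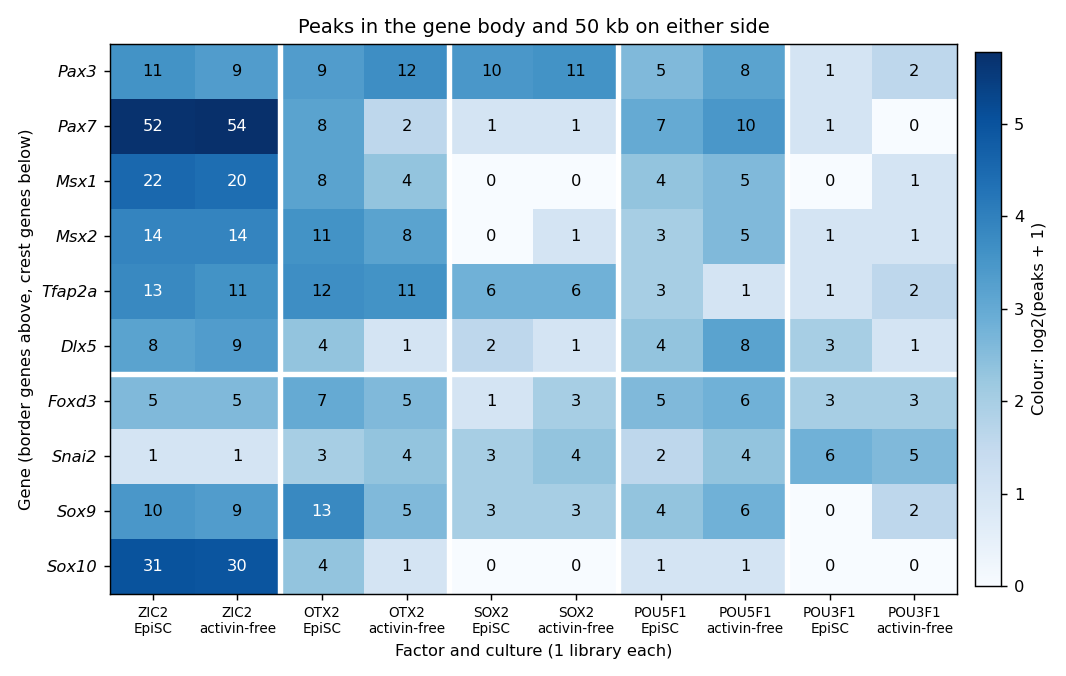
Number of peaks in the gene body and 50 kb on either side for each of the 10 genes (rows) in each of the 10 lists (columns), with the count printed in each cell and the colour on a log2(peaks + 1) scale. Pax7 and Sox10 had 52 and 31 ZIC2 peaks in EpiSCs, Pax3 had 10 SOX2 peaks, and Snai2 had 1 ZIC2 peak and 6 POU3F1 peaks.

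The ZIC2 peaks were spread unevenly among the genes, from 1 at Snai2 to 52 at Pax7 in EpiSCs and from 1 to 54 in the activin-free culture. The median over the 10 genes was 12 in EpiSCs, where the median over all protein-coding genes was 9. Pax7 and Sox10 together held 83 of the 167 EpiSC peaks. Per 100 kb of window, the EpiSC ZIC2 peaks ran from 0.966 at Snai2 to 28.3 at Sox10. The median over all protein-coding genes was 6.8, and Foxd3 (4.88) and Pax3 (5.62) also lay below it. The windows of Pax7 and Sox10 were rich in G and C, with GC contents of 51.5% and 52.4%, above 96% and 98.2% of all protein-coding genes. That of Snai2 was poor in them, at 40.1%, above 15.6%. The part of base composition in the ZIC2 counts was not tested. The ZIC2 peaks at the 10 genes scored higher than most of their lists, with a median percentile of 60.5 in EpiSCs and 57.2 in the activin-free culture, and those of POU3F1 lower, at 33.7 and 41.5.

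At the gene starts, ZIC2 stood apart from the other TFs. A ZIC2 peak lay within 1 kb of the start of all 10 genes in both cultures, where 67.6% (EpiSC) and 66% (activin-free) of all protein-coding genes had one. The highest of these promoter peaks at each gene scored from 142.0 at Pax3, the 43.9th percentile, to 2901 at Sox10, the 99.1st percentile, in EpiSCs. The start of Tfap2a itself was covered only by a weak EpiSC ZIC2 peak, of score 63.2. In the activin-free list no ZIC2 peak covered it. At Foxd3 the peak covered the start and most of the gene, with scores of 2299 and 2759, and at Sox9 it reached 3885 bp and 4871 bp in width, with scores of 2320.1 and 3100.0. OTX2 had a peak within 1 kb of the start of 4 of the 10 genes in EpiSCs, Pax3, Msx2, Dlx5 and Sox9, and of 1 of them, Msx2, in the activin-free culture, where 30.2% and 27.1% of all protein-coding genes had one. SOX2, POU5F1 and POU3F1 had a peak there at 0 of the 10 genes in either culture, against 7.21%, 4.33% and 5.25% of all protein-coding genes in EpiSCs and 11.9%, 9.04% and 6.66% in the activin-free culture.

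Pax3 (ENSMUSG00000004872.9, chr1:78097842-78193709, minus strand), a paired box TF of the dorsal neural tube and border, had the most SOX2 peaks of the 10 genes by count. There were 10 in EpiSCs and 11 in the activin-free culture, more than at 94.3% and 92.7% of all protein-coding genes, and 8 and 9 of them lay in its introns. Per 100 kb of window, its 5.11 SOX2 peaks in EpiSCs were level with the 5.08 of Tfap2a, and in the activin-free culture the values were 5.62 and 5.08. The highest, 29.1 kb into the gene, scored 473.2 and 716.1, the 98.9th and 99.2nd percentiles of the SOX2 lists, and it overlapped no peak of another TF in the same culture, while an OTX2 peak lay beside it, 27.4 kb into the gene in EpiSCs and 27.8 kb in the activin-free culture. Another at 6.27 kb scored 351.8 and 322.7. The strongest ZIC2 peak, 4.55 kb upstream, scored 2007 and 3100.0, another 7.31 kb into the gene scored 1514 and 2318, and one 20 kb upstream scored 1257 and 1838. At 82.7 kb, near the end of the gene, POU5F1 and POU3F1 met at an intronic site of 5 lists, with POU5F1 scores of 506.4 and 1415 and POU3F1 scores of 66.6 and 100, and with an OTX2 peak of 87.6 in the activin-free list alone.

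Pax7 (ENSMUSG00000028736.6, chr4:139292977-139389445, minus strand), the paralogue of Pax3, had mainly ZIC2 peaks. Its 52 and 54 ZIC2 peaks were more than at 99.2% of all protein-coding genes in EpiSCs, and per 100 kb, at 26.5 peaks, they were denser than at 93.7%. They covered 30.1% and 27.7% of the window, from 43.7 kb upstream of the start to 144.6 kb downstream of it. The highest in either culture lay 36.9 kb upstream, with scores of 1527 and 2752, and the next over the gene start, with 1514 and 2036. SOX2 had 1 peak in either culture, with scores of 57 and 59.4 near the lowest value. POU5F1 had 7 and 10 peaks, of which the one 40.6 kb into the gene scored 613.5 and 3074 and the one 34.1 kb upstream, the highest of EpiSCs, 695.2 and 1978. All 7 of the EpiSC peaks and 6 of the 10 activin-free ones held an alternating purine and pyrimidine run, as in the sequence printed above. OTX2 had 8 peaks in EpiSCs and 2 in the activin-free culture. The site of most lists, 39.5 kb upstream, had peaks in 5 lists and joined weak ZIC2 (120.7 and 65.4) to POU5F1 (199.3 and 1138) and, in EpiSCs, OTX2 (74.4).

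Msx1 (ENSMUSG00000048450.9, chr5:38211724-38215822, minus strand) and Msx2 (ENSMUSG00000021469.7, chr13:53562250-53568443, minus strand), homeobox genes of the border that respond to BMP signals, had ZIC2 and OTX2 peaks close to their starts. Msx1 had 22 and 20 ZIC2 peaks, the highest 9.95 kb upstream with scores of 1837 and 2962. Msx2 had 14 in either culture, the highest 3.13 kb upstream with scores of 1077 and 1501. OTX2 had 8 and 4 peaks at Msx1 and 11 and 8 at Msx2, and 6 of the 8 and 5 of the 11 EpiSC peaks overlapped a ZIC2 peak. The OTX2 peak over the start of Msx2 scored 367.4 and 630.9, the 94.3rd and 96.1st percentiles. SOX2 was almost missing from both windows, with 0 peaks at Msx1 in either culture and at Msx2 in EpiSCs, and 1 of score 62.8 at Msx2 in the activin-free culture. Msx1 had its site of most lists 11.6 kb downstream of the start, where ZIC2 (617.9 and 599.4), OTX2 (153.1 and 117.1) and POU5F1 (193.4 and 397.8) had peaks in both cultures. The site of most lists at Msx2 lay 36.7 kb downstream of its start and had OTX2, POU5F1 and POU3F1 peaks in both cultures, and no ZIC2 or SOX2 peak.

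Tfap2a (ENSMUSG00000021359.8, chr13:40811044-40829192, minus strand), called Tcfap2a in the annotation, encodes an AP-2 TF needed for the crest and the surface ectoderm, and it held the only site with peaks of all 10 lists. The site filled 7319 bp within the gene, chr13:40818066-40825384. The highest OTX2 peak in it was also the highest of that TF at the 10 genes, with scores of 532.4 and 1014, the 97.9th and 99th percentiles. POU5F1 scored 94 in EpiSCs and 1885 in the activin-free culture, POU3F1 885.6 and 563.2, SOX2 178.9 and 282.4, and ZIC2 557.3 and 695.9. A stretch of 630 bp, 8.73 kb into the gene, was covered by 8 of the lists. The ZIC2 peaks lay at both ends of the site and not on this stretch. In the activin-free list a single POU5F1 peak of 3144 bp lay over the 3 EpiSC peaks, so that the smaller count went with a slightly larger covered length, 3.14 kb against 2.69 kb. A second strong site of ZIC2 and OTX2 lay 10.6 kb upstream, where ZIC2 scored 1206 and 1927 and OTX2 464.8 and 720.2.

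Dlx5 (ENSMUSG00000029755.9, chr6:6827805-6832085, minus strand), a distal-less homeobox TF of the outer border, lies next to Dlx6, whose start is in the same window. Its 8 and 9 ZIC2 peaks were close to the median of all protein-coding genes, 9 and 8, with scores of up to 1302 and 1873 in the gene, and they lay over the gene and on its downstream side, towards and within Dlx6. On the upstream side no ZIC2 peak was listed, and POU5F1 had all of its 4 and 8 peaks there. The strongest OTX2 peak, 33.7 kb upstream, scored 378.4 and 588.6 and was the only one of the 4 EpiSC peaks that was found in the activin-free list. Its site of most lists, 20.4 kb downstream of the start, had ZIC2 peaks (862.0 and 756.4) with POU3F1 peaks (74.2 and 73.6) and an OTX2 peak of EpiSCs (72.5).

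**Figure D2:**
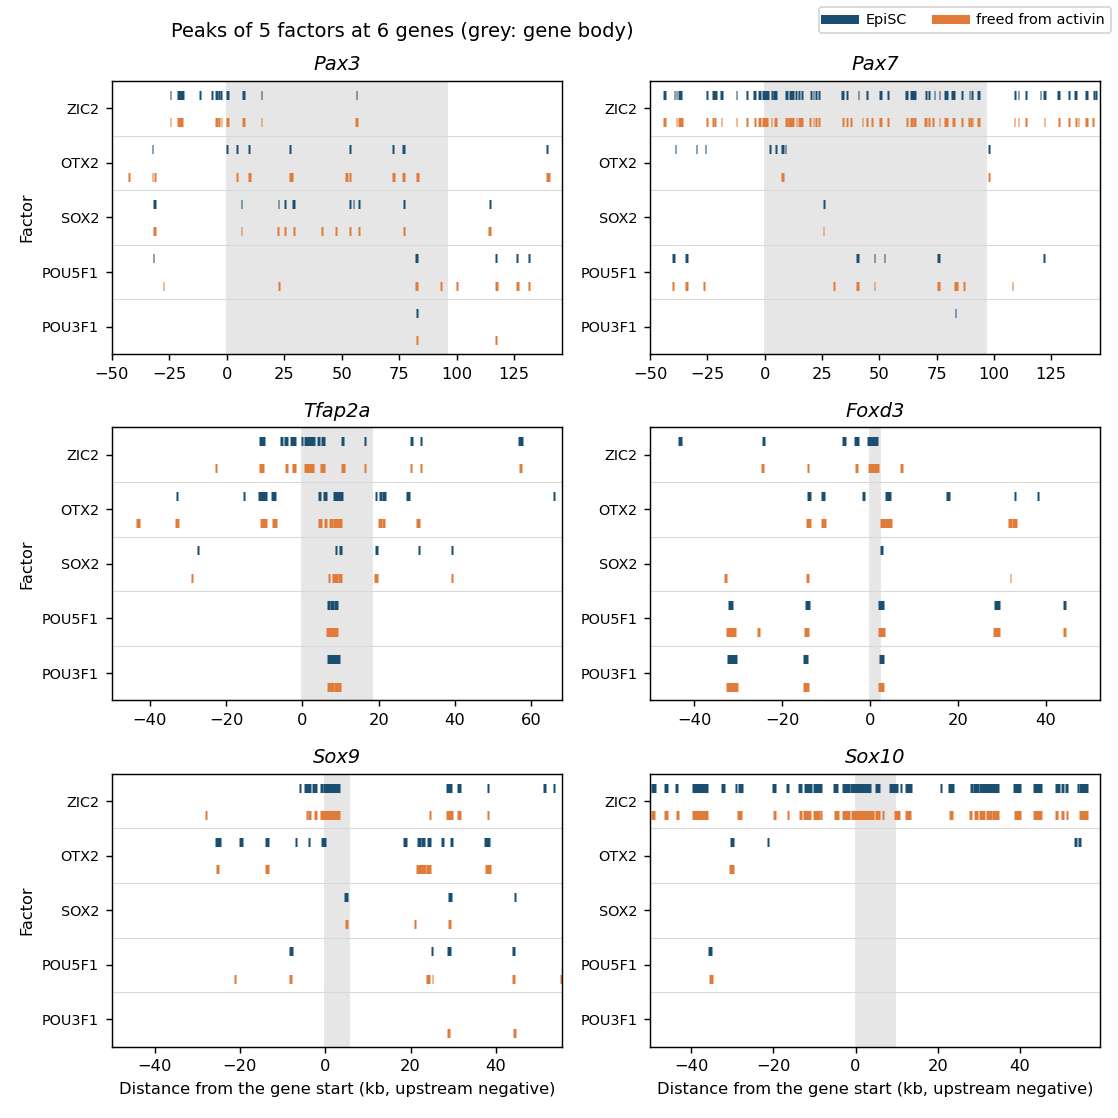
Peaks of the 5 TFs (rows, the EpiSC list above the activin-free list of each TF) at 6 of the genes by distance from the gene start in kb, upstream negative, with the width of each bar to scale and the gene body in grey. ZIC2 peaks fill the Pax7 and Sox10 windows, and SOX2 peaks line the introns of Pax3. Merged sites with peaks of all 5 TFs, not all over the same bases, lie in the Tfap2a intron and at Foxd3.

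Foxd3 (ENSMUSG00000067261.3, chr4:99322990-99325362, plus strand), a forkhead TF with a role in pluripotent cells and later in crest specification, had few peaks, 5 of ZIC2 in either culture, but 2 of the 4 sites that held all 5 TFs. The upstream one, chr4:99307770-99309670, lay 14.2 kb from the start and had peaks in 8 lists, all of which covered a common stretch of 273 bp. POU3F1 scored 541.6 and 570.1 there, POU5F1 201.9 and 529.6, and OTX2 235.0 and 381.7. The ZIC2 and SOX2 peaks of that site were in the activin-free lists alone, with scores of 117.1 and 111.7. The downstream one, chr4:99322414-99328009, had peaks in 9 lists but no base covered by more than 6 of them, since the ZIC2 peaks were centred 0.663 and 0.736 kb from the start and the OTX2 peaks 4.11 and 3.68 kb from it. POU5F1 scored 606.5 and 2713 in it, the 91st and 96.4th percentiles. A further site 31.7 kb upstream held the highest POU3F1 peaks at the 10 genes, with scores of 1140.2 and 1702, together with POU5F1 at 134.1 and 967.6 and, in the activin-free list alone, SOX2 at 235.5.

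Snai2 (ENSMUSG00000022676.6, chr16:14705945-14709488, plus strand), a zinc finger repressor of epithelial genes in migrating crest, was the reverse of Pax7 and Sox10. It had 1 ZIC2 peak in either culture, at its start, with scores of 445.9 and 352.1, where 6.94% and 7.71% of all protein-coding genes had fewer. POU3F1 had 6 and 5 peaks, more than at 81.1% and 79.7% of all protein-coding genes, and the highest of them, 25.2 kb upstream, scored 630.2 and 601.0. Of the other genes none had more than 3 POU3F1 peaks. A site of 5 lists at the 3′ end of the gene had POU5F1 and POU3F1 peaks in both cultures and a SOX2 peak of 104.5 in the activin-free one, and the POU5F1 score there was 57.4 in EpiSCs and 704.8 in the activin-free culture.

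Sox9 (ENSMUSG00000000567.4, chr11:112643538-112649074, plus strand), a SoxE TF of crest and cartilage, had a broad ZIC2 peak over its start and the largest number of OTX2 peaks in EpiSCs, 13, against 5 in the activin-free culture. Its site of all 5 TFs, chr11:112671803-112673440, lay 29.2 kb downstream of the start and had peaks in 7 lists, which shared a stretch of 99 bp. The ZIC2 scores in it were 613.8 and 508.6, SOX2 scored 102.3 and 73.3, and the rest were low, with OTX2 at 69 and POU5F1 at 58.9 in EpiSCs alone and POU3F1 at 88 in the activin-free list alone. The highest OTX2 peak of EpiSCs, 38 kb downstream, scored 411.6 and 440.5.

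Sox10 (ENSMUSG00000033006.8, chr15:78985343-78994920, minus strand), the SoxE TF of crest progenitors, glia and pigment cells, was bound by ZIC2 almost alone. It had 31 and 30 ZIC2 peaks, which covered 45% and 39.1% of its window, and of its 35 sites 30 had ZIC2 as the only TF. The window also holds the starts of Micall1, 1700088E04Rik and Polr2f, and the highest ZIC2 peak of EpiSCs, with a score of 3100.0 and a width of 5034 bp, lay 32.5 kb downstream within Micall1, so it cannot be assigned to Sox10 by position. The peak over the start of Sox10 itself was 4955 bp wide and scored 2901, and 3100.0 in the activin-free culture. SOX2 and POU3F1 had 0 peaks in either culture, and POU5F1 had 1, 35.3 kb upstream, with scores of 1082 and 2101. The site of most lists, 54.6 kb downstream and also within Micall1, had ZIC2 peaks (1704 and 1984) and an EpiSC OTX2 peak (75.7).

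Merged over the 10 lists, the peaks made 280 sites. Of these, 224 had 1 TF, 80% (74.9 to 84.3), where 74.2% of the sites merged over the genome had 1. A further 39 had 2 TFs, 13 had 3, 0 had 4 and 4 had 5, and the last were 1.43% (0.557 to 3.61), against 0.128% over the genome. Of the 446130 sites over the genome, 89203 had 2 TFs, 21081 had 3, 4058 had 4 and 573 had 5. Sites of more than 1 TF were thus a smaller share here than over the genome. ZIC2 was the only TF at 132 sites, spread over all 10 genes, and OTX2 at 42. Among sites of more than 1 TF, ZIC2 with OTX2 was the most frequent combination, at 20 sites of 8 genes. Sites of a given TF or combination were not counted over the genome. Each of the 4 sites of 5 TFs was at Tfap2a, Foxd3 or Sox9.

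In EpiSCs, an OTX2 peak overlapped 33 of the 167 ZIC2 peaks by at least 1 bp, a share of 19.8% (14.4 to 26.4), against 14.8% of the whole ZIC2 list. Seen from OTX2, 28 of 79 peaks overlapped ZIC2, 35.4% (25.8 to 46.4), against 17.8% of the whole OTX2 list. In the activin-free culture the shares were 7.41% (4.29 to 12.5) against 12.7% for ZIC2 and 24.5% (14.9 to 37.6) against 12% for OTX2. The overlap in EpiSCs was found at Msx1, Msx2, Tfap2a, Pax7, Sox9, Dlx5, Sox10 and Pax3, while at Foxd3 and Snai2 0 of 7 and 0 of 3 OTX2 peaks met ZIC2. When the shared bases had to make up 50% or more of each peak, the share of ZIC2 peaks was 3.59% in EpiSCs and 0.617% in the activin-free culture, and among peaks scoring 100 or more it was 8.06% (4.44 to 14.2) in EpiSCs and 8.66% (4.91 to 14.8) in the activin-free culture.

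The POU TFs met each other less often here than over the genome when counted from POU5F1 and more often when counted from POU3F1. In EpiSCs, 11 of 38 POU5F1 peaks overlapped a POU3F1 peak, 28.9% (17 to 44.8), against 51.7% of the whole list, and in the activin-free culture 12 of 54, 22.2% (13.2 to 34.9), against 46.3%. Of the POU3F1 peaks, 9 of 16 overlapped POU5F1 in EpiSCs, 56.2% (33.2 to 76.9), against 28%, and 14 of 17 in the activin-free culture, 82.4% (59 to 93.8), against 54.6%. The POU5F1 peaks without POU3F1 included all 7 at Pax7, all 4 at Msx1 and all 4 at Sox9 in EpiSCs.

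For the other pairs, shares were counted from the TF with fewer peaks in EpiSCs. POU5F1 peaks overlapped ZIC2 at 18.4% (9.22 to 33.4) in EpiSCs, against 5.26% of the list, and at 13% (6.42 to 24.4) in the activin-free culture, against 3.48%. They overlapped OTX2 at 23.7% (13 to 39.2), against 7.86%, and at 14.8% (7.7 to 26.6), against 10.7%. For these pairs the interval lay above the value of the list, except for OTX2 in the activin-free culture. SOX2 peaks overlapped OTX2 at 23.1% (11 to 42.1), against 12.3%, and at 33.3% (19.2 to 51.2), against 16.7%, and POU5F1 at 19.2% (8.51 to 37.9), against 8%, and 23.3% (11.8 to 40.9), against 14.7%. With ZIC2 the SOX2 shares were 11.5% (4 to 29), against 5.27%, and 10% (3.46 to 25.6), against 6.09%. The few POU3F1 peaks overlapped ZIC2 in 1 of 16 and 4 of 17 cases, 6.25% and 23.5% (9.56 to 47.3), against 1.27% and 2.02%. They overlapped OTX2 in 3 and 6 cases, 18.8% and 35.3% (17.3 to 58.7), against 6.38% and 12.9%, and SOX2 in 2 and 6, 12.5% and 35.3%, against 9.81% and 13.7%. The activin-free POU3F1 overlaps with ZIC2 lay at Dlx5, Foxd3 and Sox9.

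For ZIC2, OTX2 and SOX2, the searched sequences occurred in the central 201 bp of the EpiSC peaks at shares whose intervals included that of the list. The ZIC sequence was in 18% (12.9 to 24.5) of the EpiSC ZIC2 peaks at the 10 genes and in 19.1% of the whole list, and in 6.35% of windows of the same length 1000 bp away from its peaks. The OTX sequence was in 24.1% (16 to 34.5) of the OTX2 peaks and 23.6% of the list, against 9.02% of the flanking windows. The SOX sequences were in 50% (32.1 to 67.9) of the SOX2 peaks and 57.4% of the list, against 30%. The octamer was in 31.6% (19.1 to 47.5) of the POU5F1 peaks, and in 18.6% of the list, just under the interval, and 3.27% of the flanking windows. In the activin-free culture it was in 22.2% (13.2 to 34.9) of the POU5F1 peaks, against 13.6% of the list, within the interval. The octamer ATGCATAT is itself an alternating string, so a match can lie within the runs counted next. Alternating purine and pyrimidine runs of at least 20 bases were in 47.4% (32.5 to 62.7) of the POU5F1 peaks of EpiSCs, where 29.6% of the list had one, and in 50% (37.1 to 62.9) of those of the activin-free culture, where 21.5% did. Of the POU3F1 peaks of EpiSCs, 2 of 16 had such a run, 12.5% (3.5 to 36), against 4.16% of the list. In the activin-free culture 1 of 17 had it, 5.88% (1.05 to 27), against 5.05%. A match is a description of the sequence and not evidence of a bound base.

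Between the cultures, most ZIC2 peaks at the 10 genes were found in both lists. Of the EpiSC peaks 143 of 167, 85.6% (79.5 to 90.1), overlapped an activin-free ZIC2 peak, against 78.9% of the whole list, and in the other direction 92.6% (87.5 to 95.7) against 91.2%. Peaks of a gene were also counted per 100000 peaks of the list, and a ratio above 2-fold was called where the 2 cultures had at least 4 peaks together. For ZIC2, 0 of the 9 genes with enough peaks passed in either direction, with ratios of activin-free to EpiSC between 0.914 at Pax3 and 1.26 at Dlx5, and 1.37% of all protein-coding genes tested passed with fewer peaks and 0.52% with more.

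The number of OTX2 peaks was lower in the activin-free list past 2-fold at 5 of the 10 genes, where 9.58% of all protein-coding genes tested passed in that direction and 4.56% in the other, and at 0 of the 10 genes it was higher past 2-fold. The 5 genes were Pax7 (8 and 2 peaks, ratio 0.226), Msx1 (8 and 4, 0.453), Dlx5 (4 and 1, 0.226), Sox9 (13 and 5, 0.348) and Sox10 (4 and 1, 0.226). At Pax3 the numbers were 9 and 12, and at Tfap2a 12 and 11. The count at Sox9 is also affected by merging, as 1 activin-free peak of 2218 bp covered 2 EpiSC peaks, and 7 of the 13 EpiSC peaks had no overlapping peak in the activin-free list. With peaks of a score of at least 100 alone, 1 gene passed in either direction, and with every list reduced to its top 50000 peaks by score 2 genes did. The share of all protein-coding genes that passed was not counted by these limits, so these counts have no background. By either limit Dlx5 and Sox10 kept fewer than 4 OTX2 peaks over both cultures, so they could not be called.

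**Figure D3:**
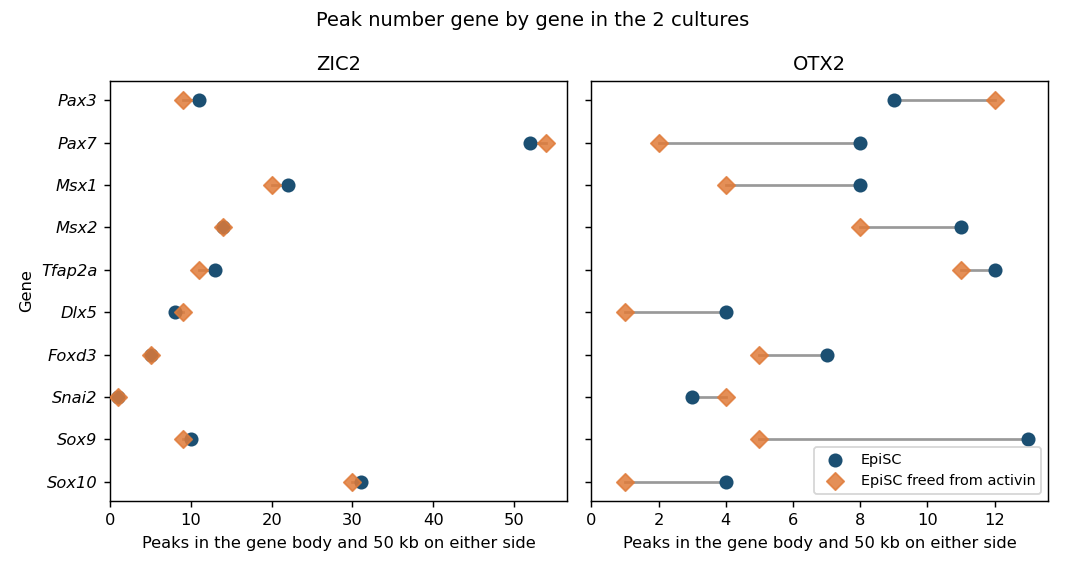
Number of ZIC2 (left) and OTX2 (right) peaks at each gene in EpiSCs (circles) and in EpiSCs freed from activin (diamonds), 1 library each. The ZIC2 symbols lie close to each other at all genes, and the OTX2 number goes from 8 to 2 at Pax7 and from 13 to 5 at Sox9.

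Peak by peak, 43 of the 79 OTX2 peaks of EpiSCs, 54.4% (43.5 to 65), overlapped an activin-free OTX2 peak, against 78.1% of the whole OTX2 list, and in the other direction 77.4% (64.5 to 86.5) of the 53 activin-free peaks, against 67.5%. Most of the peaks that were not found again had low scores, and among peaks of a score of at least 100 in both lists the share was 81.8%. Of the 33 peaks at or above the median score of the EpiSC list, 30 were found again, 90.9% (76.4 to 96.9), close to the 94.2% of the whole list. Of the 46 below it, 13 were, 28.3% (17.3 to 42.5), against 61.9%. OTX2 peaks that overlapped a ZIC2 peak were found again in 11 of 28 cases, 39.3% (23.6 to 57.6), against 70.1% of such peaks in the list, and the others in 32 of 51, 62.7% (49 to 74.7), against 79.8%. Peaks with a GC content of 50% or more made up 30.4% of the OTX2 peaks at these genes and 8.6% of the list, and 9 of those 24 were found again, 37.5% (21.2 to 57.3), against 53.9%. The part of score, base composition and library in the difference was not tested.

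**Figure D4:**
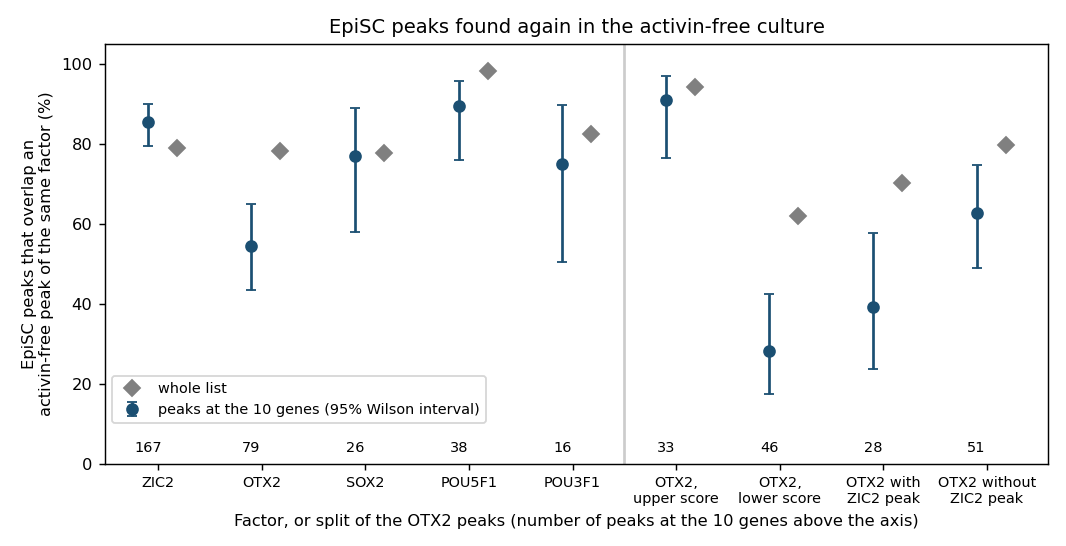
Percentage of the EpiSC peaks at the 10 genes (circles, with 95% Wilson intervals) and of the whole EpiSC list (diamonds) that overlap an activin-free peak of the same TF, for the 5 TFs and for the OTX2 peaks split at the median score of the list and by overlap with a ZIC2 peak, with the number of peaks at the 10 genes above the axis. OTX2 lies at 54.4% against 78.1%, and its peaks below the median score at 28.3% against 61.9%.

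At Pax7, the 6 OTX2 peaks that had no counterpart in the activin-free list included one 2.33 kb into the gene with a score of 170.3, the 75.7th percentile, and 5 of the 6 lay below a score of 100. At Msx1, 4 of the 8 had none, with scores from 52.9 to 90.2, while the 2 strongest, 1.9 and 4.34 kb upstream, were in both lists with scores of 260.4 and 228.0 in EpiSCs and 178.8 and 141.5 in the activin-free culture. At Sox10 the single peak of both lists, 30.1 kb upstream, scored 204.6 and 305.4. At Tfap2a 8 of 12 and at Pax3 8 of 9 were found again.

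SOX2 peaks of EpiSCs were found again at 76.9% (57.9 to 89), against 77.6%, and POU3F1 peaks at 75% (50.5 to 89.8), against 82.6%. In the other direction the shares were 66.7% (48.8 to 80.8), against 55.9%, for SOX2 and 76.5% (52.7 to 90.4), against 86.8%, for POU3F1. POU5F1 peaks were found again at 89.5% (75.9 to 95.8), with 98.3% for the list above the interval. Counted from the activin-free list, 59.3% (46 to 71.3) of the POU5F1 peaks overlapped an EpiSC peak, against 47.1% of that list, which was the longest of the 10. Past 2-fold, SOX2 had more peaks at Foxd3 (1 and 3), where 13.5% of the genes tested passed in that direction. POU5F1 had fewer at Tfap2a (3 and 1, through the merged peak described above), where 13.6% passed, and POU3F1 fewer at Dlx5 (3 and 1), where 4.21% passed. Among peaks scoring 100 or more, each of these 3 cases had fewer than 4 peaks over both cultures, so none could be called. Of the 280 sites, 203 had a peak of the same TF in both cultures, 72.5% (67 to 77.4), where 64.8% of the 446130 sites merged over the genome had one. EpiSC peaks alone made 40 sites, 14.3% (10.7 to 18.9), against 12.6%, and activin-free peaks alone 37, 13.2% (9.74 to 17.7), against 21.4%.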

How the data were processed

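ChIP-seq of 5 TFs in the EpiSC and activin-free cultures gave 10 peak lists, and a sequenced input is not used here. The authors mapped reads with Bowtie2 to mm9 and called peaks with MACS1.4 against the input, with a band width of 150. The only input sample was from the EpiSC culture with activin, and the activin-free culture had none of its own. The deposited score of each peak is on the scale of -10 log10 of a p-value and has no depth behind it in the files. The members and gene lists were chosen with earlier results of these data known, and the splits of OTX2 peaks and the alternating runs after seeing the values.

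Genes were taken from GENCODE vM1 on NCBIM37 (mm9), with Tfap2a matched through an older RefSeq symbol, and gene starts are the outer ends of the gene records. Only peaks on chromosomes 1 to 19, X and Y were used. Midpoints assigned peaks to windows, overlap meant 1 shared bp, and sites were peaks of all lists merged where they shared 1 bp. Named were the 10 genes, the site of most lists at each, the highest-scoring peak of each list at them, and the extremes of a further list of border and crest genes. The upstream Foxd3 site was named after its values were seen, as were single peaks given with a gene. Counting steps were tested on simulated lists. Alternatives were a score of at least 100, the 50000 highest-scoring peaks, 20 kb flanks, any-base assignment, 50% reciprocal overlap and merging of the central 300 bp. Python 3.11.15, numpy 2.4.6, scipy 1.17.1 and matplotlib 3.10.9 were used.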

Additional observations from a re-analysis of the deposited data

How the results depend on the processing

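No paired analysis was possible because each TF and culture has 1 library and no test was made. The density ratios moved beyond their intervals with 20 kb flanks for ZIC2 (3.61 in EpiSCs and 3.99 in the activin-free culture) and OTX2 (2.11 and 1.29), and with the 50000 highest-scoring peaks for ZIC2 in EpiSCs (3.57) and POU3F1 (0.164 in both cultures, from 4 peaks each). The ratio over all protein-coding genes was not counted by these rules. Assignment by any base left all its results within the intervals. Merging of the central 300 bp gave 210 of 364 sites with a TF in both cultures, where the main rule gave 203 of 280. The count stayed within 1.5 times, but the share of sites was lower. The share over the genome was not counted by that rule. The share of OTX2 EpiSC peaks found again moved from 54.4% to 81.8% with a score of at least 100 and to 69.7% with the 50000 highest-scoring peaks, where fewer weak peaks enter by construction, and that of the activin-free OTX2 peaks to 91.7% with the 50000 highest-scoring peaks. With these, POU5F1 activin-free peaks moved to 88.9% and POU3F1 to 100% in both directions. POU3F1 activin-free peaks also moved to 100% with 20 kb flanks, and ZIC2 activin-free peaks to 82.1% with 50% reciprocal overlap. The share of ZIC2 peaks with OTX2 in EpiSCs moved from 19.8% to 3.59% with 50% reciprocal overlap, to 8.06% with a score of at least 100 and to 9.2% with the 50000 highest-scoring peaks, and in the activin-free culture from 7.41% to 0.617% with 50% reciprocal overlap. Alternatives for the 2-fold calls were chosen after seeing the data. With a score of at least 100, the genes called were 1 for OTX2 and 0 for SOX2, POU5F1 and POU3F1. With the 50000 highest-scoring peaks they were 2 for OTX2, 2 for SOX2 and 0 for POU3F1. These counts cover either direction, and the share of all protein-coding genes was not counted by these limits. A gene left with fewer than 4 peaks by these limits could not be called. For the other values the cause was not tested. Depth is unknown, and no value has a replicate.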

Other observations

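A further list of 24 genes of the border (10) and crest (14) was counted in the same windows. ZIC2 had a peak at 23 of the 24 in both cultures, with a median of 10 peaks in EpiSCs, against 9 over all protein-coding genes, and 9 in the activin-free culture, against 8. A ZIC2 peak lay within 1 kb of the start of 19 of the 24 in either culture, where 67.6% and 66% of all protein-coding genes had one. The most ZIC2 peaks were at Dlx3, a distal-less homeobox gene (40 in EpiSCs and 36 in the activin-free culture), in a window with a GC content of 51.3%, and SOX2, POU5F1 and POU3F1 had 0 peaks there. Tfap2b, the paralogue of Tfap2a, had 0 peaks of ZIC2 and of OTX2 in either culture and 3 of POU3F1 in each, in a window with a GC content of 40.5%.

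By raw count, Sox5, a SoxD gene, had the most peaks of SOX2 (18 and 26), POU5F1 (29 and 55) and POU3F1 (21 and 19) of the 24 genes. The windows include the gene body and so differ in length, and no density per 100 kb was counted for these 24 genes. Prdm1, a zinc finger repressor, had the most OTX2 peaks, 20 in either culture. The OTX2 median over the 24 genes was 6.5 in EpiSCs and 5 in the activin-free culture, against 8 and 7 over all protein-coding genes. At the 10 border genes the medians were 6.5 and 5, and at the 14 crest genes they were 6.5 and 7. The window of Dlx6 overlaps that of Dlx5, so these counts share peaks.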
